A study of Ovis aries with 8 samples.

Results

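The cytosolic ribosomal protein genes were described here in pancreatic islets of near-term sheep fetuses. A gene counted as a member where its name began with RPL or RPS and a digit, or with RPLP, or was RPSA. Names that merged several genes and the kinase names beginning RPS6K were left out, and of several rows with 1 name the row with the highest mean was kept. The rule found 52 genes among the 25000 rows of the table, 31 named for the large subunit and 21 for the small subunit, out of 66 rows that carried such a name. Because the rule read names only, 1 member is no ribosomal protein (RPS19BP1, which binds RPS19), 4 are paralogs of another ribosomal protein (RPL3L, RPL10L, RPL26L1 and RPS27L), and 1 carries the name of a readthrough transcript (RPL36A-HNRNPH2). The other 46 are canonical ribosomal proteins, out of 77 canonical names that would have met the rule. The remaining 31 names, RPSA, RPL4, RPS2, RPS14 and RPL38 among them, are not analysed here.

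Cytosolic ribosomes make nearly all of a cell's protein, and each consists of a large subunit, which joins amino acids, and a small subunit, which reads the messenger RNA. One copy of nearly every ribosomal protein goes into each ribosome, so the transcripts are made together, are among the most abundant in most cells, and mostly begin with a pyrimidine tract (5′-TOP) through which mTORC1 controls their translation. In the islet, beta cells depend on high rates of translation because insulin is a secreted protein made in bulk.

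The NE-Infused group was 4 fetuses given norepinephrine intravenously for 7 days, at 1 µg/min on day 1, 2 µg/min on days 2 to 4 and 4 µg/min on days 5 to 7. The Saline-Control group was 4 fetuses given the diluent alone, which was saline (0.9%) with ascorbic acid (0.3%). All 8 were singletons of Columbia-Rambouillet crossbred ewes, and their islets were isolated, picked by hand and sequenced after selection of messenger RNA. NE-Infused fetuses were 137 to 139 days of gestation and weighed 2.8 to 3.7 kg, and controls were 139 to 140 days and weighed 3.6 to 5 kg. Each group held 3 males and 1 female.

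Animal numbers began with 09 or 10, with no meaning given in the labels. Number 09 was carried by norepinephrine animals 1, 3 and 4 and by control 2, and number 10 by norepinephrine 2 and by controls 1, 3 and 4. Animals numbered 09 weighed 2.8 to 3.6 kg at 137 to 139 days and included both females. Those numbered 10 weighed 3.7 to 5 kg at 139 to 140 days and were all male. The number therefore cannot be told apart from weight, and only in part from treatment, age and sex.

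The values are FPKM, fragments per kilobase of transcript corrected for the number of mapped fragments. Summed FPKM ran from 981583 to 1112624 in animals numbered 09 and from 768021 to 796149 in those numbered 10, while the median FPKM of the tested genes lay between 15.1 and 15.5 in all 8 animals. Total depth is unknown. Steps of 1 fragment in low genes give depths relative to control 1 only if values were scaled by mapped fragments alone, which was not tested. They were 0.653 and 0.723 for norepinephrine 1 and 3, both numbered 09. For norepinephrine 2, control 3 and control 4, numbered 10, they were 1.01, 1.17 and 1.09. Between 10.9 and 20.2% of the rows compared lay at these ratios. The steps gave no usable value for norepinephrine 4 and control 2. Endocrine markers were abundant, with CHGA at 4047 to 5671 FPKM in norepinephrine animals and 2895 to 6212 FPKM in controls, and PDX1 at 226 to 317 and 211 to 279 FPKM in the same order, while IAPP was listed at 0 in every animal.

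Most members were very abundant. Of the 52, 28 averaged at least 1000 FPKM over the 8 animals, and 31 at least 300 FPKM. Among abundant small-subunit members, RPS28 had 6782 ± 1970 FPKM in norepinephrine animals and 6098 ± 2630 FPKM in controls (SD, n = 4 each). RPS19, the gene most often mutated in human Diamond-Blackfan anaemia, averaged 6061 FPKM over the 8 animals, and RPS18 averaged 5247 FPKM. In the large subunit RPL19 led with 6361 ± 1431 FPKM in norepinephrine animals and 5911 ± 2072 FPKM in controls, ahead of RPL31 (mean over all animals 5623 FPKM), the stalk proteins RPLP1 and RPLP0 (5622 and 4771 FPKM) and RPL32 (3480 FPKM). Members rose and fell together over animals, so the spread over animals does not measure how far their order holds. RPLP0 was above RPL32 in all 8 animals, while RPL31 was above RPLP1 in some animals and below it in others.

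**Figure D1:**
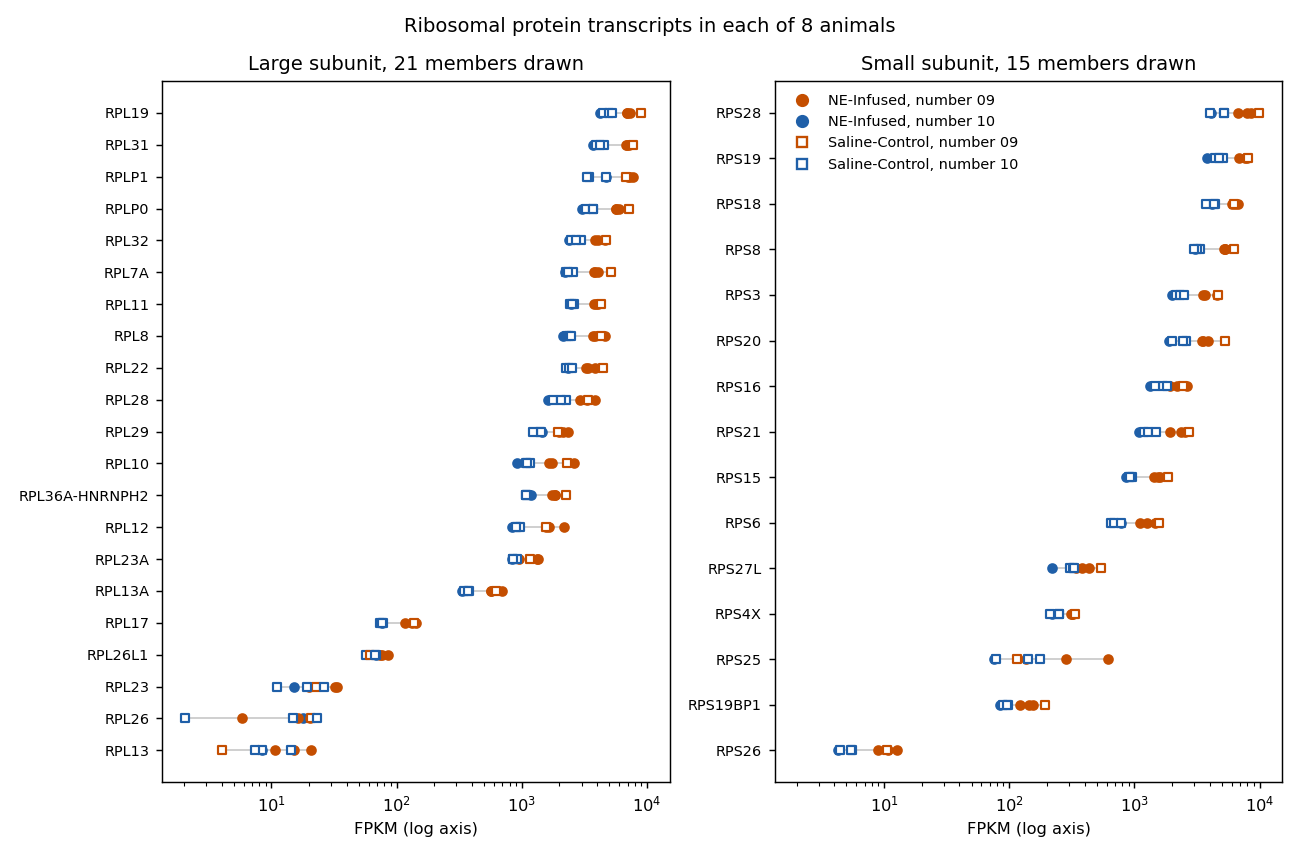
FPKM of 36 of the 40 tested members in each of 8 animals, on a log axis, with 21 members named for the large subunit on the left and 15 named for the small subunit on the right. Filled circles are NE-Infused and open squares Saline-Control animals, orange for number 09 and blue for number 10, and in 31 of the 36 every orange point lies to the right of every blue one.

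At the other end stood 12 names, below the mean of 1 FPKM that a gene needed to be tested. RPL3, RPL18, RPL10L and RPS29 were listed at 0 in all 8 animals. The other 8 had means of 0.784 FPKM (RPL21), 0.558 (RPL35), 0.5001 (RPLP2, the third stalk protein), 0.420 (RPS27), 0.291 (RPL37), 0.0495 (RPL3L), 0.0270 (RPS24) and 0.0166 FPKM (RPL5). RPL3L is mostly made in muscle and RPL10L in testis, whereas the other 10 belong to every ribosome. RPL11, which enters the ribosome in 1 complex with RPL5, averaged 3265 FPKM against the 0.0166 FPKM of RPL5. A further 9 members were tested with means under 300 FPKM, from RPS4X at 277 FPKM through RPL23 at 22.6 FPKM to RPS26 at 7.84 FPKM.

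The low values went together with the position of the rows. Ribosomal protein genes have many processed copies in mammalian genomes, which share sequence with the parent gene, so fragments can be split between them. The 5 named rows on either side of each member, and those inside its locus, were set against the 15 nearest protein-coding genes on either side in the RefSeq annotation of another sheep assembly. Of the 29 members with at least 300 FPKM whose symbol is in RefSeq, 26 shared at least 1 neighbour with it. Of the 19 under 300 FPKM, only 5 did (RPS19BP1, RPL26L1, RPL23, RPL3L and RPL10L), and the 14 others shared none.

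RPL5, for example, was a row inside the locus of GBE1, RPL37 inside that of PIK3C2A and RPS26 inside that of UNC13B. The 31 members that shared a neighbour had a median of 3045 FPKM, against 0.558 FPKM for the 17 that shared none. Among the 17 were 3 abundant ones, RPL12, RPS6 and RPL23A. Whether a low row reports the gene it is named for was not tested, and the levels of all members that share reads with copies are uncertain.

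RPL23A, a protein of the exit tunnel rim, shows the problem within 1 symbol. Its name is on 4 rows, and the rule took the row on chromosome 16 from 5411721 to 5412191 (Oar_v3.1), 471 bases long, with a mean of 1028 FPKM and no shared neighbour. A row of 3063 bases on chromosome 11, from 19771126 to 19774188, shared all 10 neighbours with RefSeq but averaged 117 FPKM. RPL17 had 8 rows with means from 5.06 to 104 FPKM. RPS25, which is needed for translation from several viral entry sites, averaged 203 FPKM in a row of 414 bases on chromosome 5, while a row named for both RPS25 and SLC37A4, on chromosome 15, averaged 48.4 FPKM and was left out by the rule.

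Large-subunit and small-subunit medians were similar among the 31 members with at least 300 FPKM, a cut set after the data were seen. The cut is on the level that is compared, which can bring the medians together. Of these members, the 17 of the large subunit had a median of 3045 FPKM and the 14 of the small subunit a median of 3151 FPKM. On the log2 scale, the median of the large subunit minus that of the small subunit was -0.10, 0.12, -0.10 and -0.13 in norepinephrine animals 1 to 4, and 0.13, -0.22, -0.04 and -0.07 in controls 1 to 4. The sign was thus not the same in all animals of either treatment group. All 4 animals numbered 09 were below 0, and those numbered 10 were on both sides of it.

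Over all 40 tested members the same quantity was 0.21, 0.33, 0.34 and 0.23 in norepinephrine animals and 0.11, 0.11, 0.25 and -0.15 in controls, with a median of 0.22 over the 8. Which subunit was higher depended on which members entered, since the median was -0.08 for members with at least 300 FPKM and -0.12 when the untested members were added.

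Norepinephrine was compared with control first. No member changed at the threshold: limma called 0 of 40 members at an adjusted p under 0.05, and 0.0% of the 13252 tested genes. At an unadjusted p under 0.05 there were 0 members and 975 genes. The fitted log2 difference, norepinephrine minus control, was above 0 in 39 of 40 members and in 52.6% of all tested genes. Its median was 0.27 over the members, against 0.02 over all tested genes. Members moved together from animal to animal, so their signs are not separate results. No member had groups that did not overlap, in either direction, against 4.23% of all tested genes.

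RPLP1, which with RPLP0 and RPLP2 forms the stalk that calls elongation factors to the ribosome, had one of the larger treatment differences. It had 7668, 4682, 7339 and 6989 FPKM in norepinephrine animals 1 to 4, against 4740, 6819, 3418 and 3322 FPKM in controls 1 to 4. The groups overlapped, because control 2 lay close to norepinephrine 4 and norepinephrine 2 lay below control 1. Its log2 difference was 0.58 ± 0.31 (SE), with an adjusted p of 0.701.

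RPL12, at the base of the same stalk, had 1564, 834, 1649 and 2184 FPKM in norepinephrine animals and 918, 1552, 969 and 900 FPKM in controls. Again control 2 lay with 3 norepinephrine animals and norepinephrine 2 with 3 controls, and the log2 difference was 0.48 ± 0.31 (SE; adjusted p = 0.752). RPL29 had a difference of 0.40 (adjusted p = 0.714).

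The largest fitted difference was that of RPS25, at 0.75 ± 0.57 (SE; adjusted p = 0.777). Its row had 135, 75.7, 286 and 618 FPKM in norepinephrine animals and 78.8, 116, 175 and 140 FPKM in controls, so the difference came from norepinephrine 3 and 4. RPL13 (0.66, adjusted p = 0.704) and RPS26 (0.42, adjusted p = 0.777) also stood among the 6 largest, with means over all animals of 11.1 and 7.84 FPKM.

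RPS27L, a paralog of RPS27 that p53 induces in human cells, was the only member with a negative difference, at -0.12 ± 0.25 (SE; adjusted p = 0.920). It had 384, 220, 435 and 342 FPKM in norepinephrine animals, against 305, 541, 325 and 329 FPKM in controls. The next smallest differences were 0.10 for RPS20, 0.11 for RPS16, and 0.13 for both RPL19 and RPS19BP1, then 0.16 for RPS4X. RPS20, in the head of the small subunit, had 3517, 1901, 3447 and 3844 FPKM in norepinephrine animals and 2000, 5303, 2569 and 2450 FPKM in controls. Here control 2 was the highest and norepinephrine 2 the lowest of the 8, as in 16 of the 40 members.

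RPS6, the substrate of the S6 kinases below mTORC1, had 1113, 788, 1249 and 1458 FPKM in norepinephrine animals and 651, 1560, 681 and 781 FPKM in controls (log2 difference 0.39, adjusted p = 0.777). RPL11, which outside the ribosome binds MDM2 in human cells, had 3783, 2457, 3899 and 4092 FPKM in norepinephrine animals and 2422, 4316, 2615 and 2538 FPKM in controls (0.27, adjusted p = 0.818). In both, the 4 animals numbered 09 were the highest of the 8.

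The sign of the treatment difference turned round within the number groups. With the number in the model the members' median was -0.16, against -0.02 over all tested genes. Above 0 lay 9 of 40 members, against 47.2% of all tested genes, and 31 members lay below 0. Of the 40 members, 0 passed the adjusted threshold, against 0.00755% of all tested genes. An unadjusted p under 0.05 was found in 7 of 40, all lower after norepinephrine. Of all 13252 tested genes 1552 had such a p, and 606 of these were higher and the others lower. Among animals numbered 09 (3 norepinephrine, 1 control) the median difference was -0.17, against -0.04 over all genes. There 10 of 40 members were higher and 30 lower, while 45.8% of all genes were higher. Among those numbered 10 (1 norepinephrine, 3 controls) the median was -0.16, against 0.00 over all genes. There 7 members were higher and 33 lower, while 50.3% of all genes were higher.

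These within-number values each rest on 1 lone animal, control 2 or norepinephrine 2, which is assumed to vary like the others in the fit. RPS27L was -0.49 in number 09 and -0.53 in number 10, and -0.51 ± 0.11 (SE) with the number in the model (adjusted p = 0.307). RPLP1 kept a positive difference in both, 0.10 and 0.31. A test of whether the treatment difference differed between the number groups called 0 of 40 members, against 0.121% of all tested genes. RPL13 (1.84, unadjusted p = 0.0227) and RPL36A-HNRNPH2 (-0.44, unadjusted p = 0.0340) were the 2 of 40 members below 0.05 before adjustment, against 744 of 13252 genes.

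**Figure D2:**
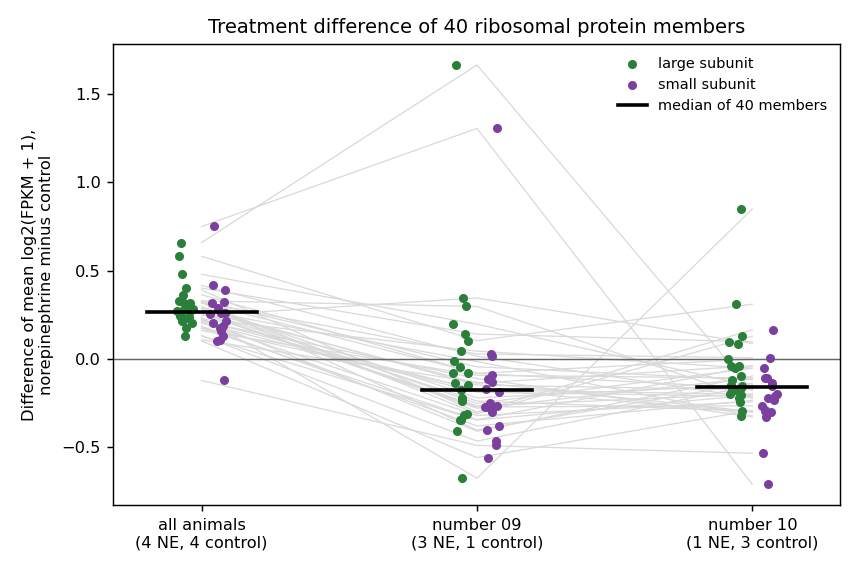
Difference of mean log2(FPKM + 1), norepinephrine minus control, of the 40 tested members over all animals and within each number group. Each point is 1 member, green for the large and purple for the small subunit, grey lines join a member's values, and black bars are medians, which lie at 0.27 over all animals, -0.17 in number 09 and -0.16 in number 10.

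Number 09 was then compared with number 10, with treatment in the model. Members were higher in animals numbered 09: limma called 34 of 40 at an adjusted p under 0.05, all higher, where 10.4% of all tested genes were called higher and 6.06% lower. The median log2 difference was 0.85, against 0.09 over all tested genes. In 35 members the 4 animals numbered 09 were all above the 4 numbered 10, an ordering found in 14.8% of all tested genes, and in 0 members was the ordering reversed, against 10.6%. The large subunit had 17 of 22 members called (median 0.81) and the small subunit 17 of 18 (median 0.89).

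The direction was the same within both treatment groups, though each value rests on 1 lone animal, norepinephrine 2 or control 2. Within norepinephrine animals the median difference, 09 minus 10, was 0.82, against 0.05 over all tested genes. Within controls it was 0.85, against 0.09 over all tested genes. The calls did depend on control 2, the only control numbered 09. Without it limma called 0 members and 18 genes in all. That fit compares the numbers within norepinephrine animals only, so its members' median of 0.82 repeats the value above. With fetal sex added to the model it called 0 members and 24 genes, at a median of 0.89.

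RPL10, which is fitted late into the large subunit before it can join the small one, had the largest difference of that subunit. Animals numbered 09 (norepinephrine 1, 3 and 4 and control 2) had 1643, 1745, 2607 and 2307 FPKM, against 910, 1090, 1173 and 1092 FPKM in those numbered 10 (norepinephrine 2 and controls 1, 3 and 4). The groups did not overlap, and the log2 difference was 1.07 ± 0.17 (SE; adjusted p = 0.0125).

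Small-subunit members with large differences were RPS20 (1.05), RPS21 (1.05) and RPS26 (1.04). RPS3, at the messenger RNA entry, followed with 3682, 3522, 4558 and 4686 FPKM in number 09, against 2008, 2131, 2327 and 2474 FPKM in number 10. Its difference was 0.99 ± 0.12 (SE; adjusted p = 0.0103), and there was a wide gap between the groups. RPS28 (0.99) and RPLP0 (0.97) came after it. Other members with no overlap included RPL7A at 0.96, and RPS6 and RPL12, both at 0.92.

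Abundant members moved alike. RPL19 averaged 7550 ± 975 FPKM in number 09 and 4723 ± 445 FPKM in number 10, and RPLP0 6115 ± 731 and 3427 ± 355 FPKM (SD, n = 4 each). RPL11 averaged 4022 ± 233 and 2508 ± 86.1 FPKM, and RPL13A, which in human cells can leave the ribosome to silence inflammatory transcripts, 615 ± 62.0 and 357 ± 19.4 FPKM, in the same order. In all 4 the gap between the number groups was wider than the SD within either.

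The 6 members not called were RPL23A, RPL23, RPL26, RPL26L1, RPL13 and RPS25. The RPL23A row had 951, 1327, 1345 and 1157 FPKM in number 09, against 837, 847, 913 and 849 FPKM in number 10. There was no overlap, but norepinephrine 1 lay close to control 3, and the log2 difference was 0.46 ± 0.14 (SE; adjusted p = 0.0622). Its row of 471 bases on chromosome 19 differed by 0.78 (adjusted p = 0.0103) and the row on chromosome 11, with the shared neighbours, by 0.09 (adjusted p = 0.880).

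RPL26, another exit tunnel protein, had 5.83, 16.4, 20.5 and 20.8 FPKM in number 09 and 17.9, 14.8, 2.04 and 23.0 FPKM in number 10, with full overlap (0.30 ± 0.80, SE; adjusted p = 0.821). Its paralog RPL26L1 was steadier, with 85.3, 76.0, 73.0 and 61.1 FPKM in number 09, against 68.3, 57.0, 68.6 and 67.8 FPKM in number 10. That was a difference of 0.06 ± 0.12 (SE; adjusted p = 0.758), and RPL26L1 and RPL13 were the members nearest to or below 0. RPL13 had 20.6, 10.6, 15.03 and 4.01 FPKM in number 09, against 8.44, 8.46, 7.37 and 14.4 FPKM in number 10 (-0.17 ± 0.44, SE; adjusted p = 0.812). The smallest differences that passed were those of RPS4X (0.52, adjusted p = 0.0153) and RPL29 (0.56, adjusted p = 0.0162). Neither passed once every animal was scaled to equal summed FPKM, where RPS4X was at 0.071 (adjusted p = 0.622) and RPL29 at 0.11 (adjusted p = 0.509).

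**Figure D3:**
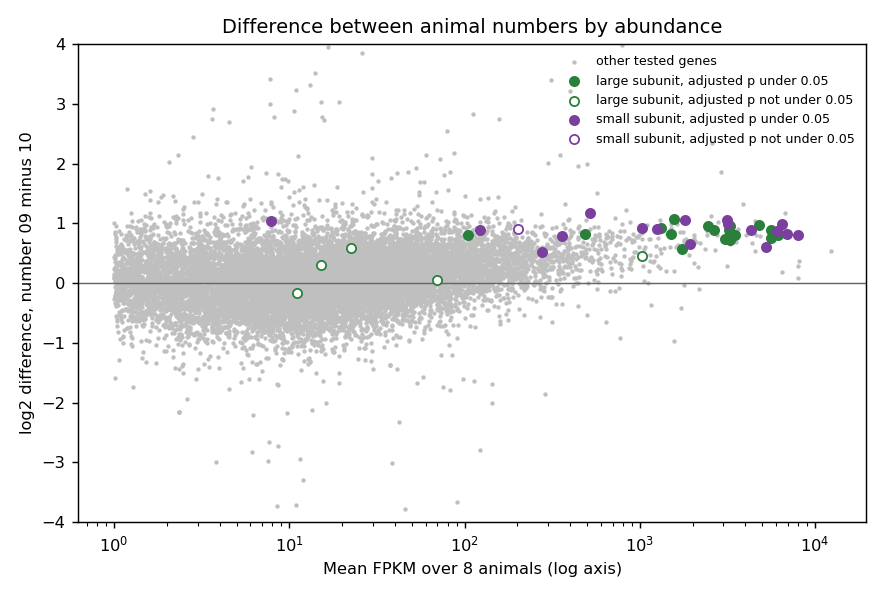
Log2 difference, number 09 minus number 10 with treatment in the model, against mean FPKM on a log axis for all 13252 tested genes. Large-subunit members are green and small-subunit members purple, filled where the adjusted p is under 0.05, and other genes are grey (14 of them lie beyond the limits of 4). The 31 members with at least 300 FPKM lie at 0.46 or above, at the right edge where other abundant genes are also mostly above 0.

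The difference between the numbers was not confined to ribosomal proteins among abundant genes. Of the 373 other genes with at least 300 FPKM, 209 (56.0%) were called higher in number 09 and 2 lower, with a median of 0.55. Of the members at that level 30 of 31 were called, with a median of 0.88. Among the 97 other genes with at least 1000 FPKM, 60 (61.9%) were called higher and 0 lower, with a median of 0.70, while 27 of 28 members were called, with a median of 0.88. Whether the members differ from other genes of like abundance was not tested.

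The share of an animal's summed FPKM taken by the members was 12.4, 9.04, 11.8 and 12.2% in norepinephrine animals 1 to 4 and 9.60, 12.8, 10.1 and 9.92% in controls 1 to 4. It was thus 11.8 to 12.8% in the animals numbered 09 and 9.04 to 10.1% in those numbered 10, with no overlap, and the treatment groups overlapped. Both subunits took part, the large one with 5.97 to 6.34% in number 09 and 4.67 to 5.00% in number 10, and the small one with 5.81 to 6.41% and 4.38 to 5.10%.

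When every animal was scaled to equal summed FPKM, the median difference, 09 minus 10, was -0.31 over all genes, against 0.09 as deposited, and 0.39 over the members, against 0.85. On that scale 27 of 40 members were called, all higher, while of all tested genes 236 were called higher and 4127 lower, against 1384 and 803 as deposited. RPL26L1, RPL26 and RPL13 lay below 0 on that scale.

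**Figure D4:**
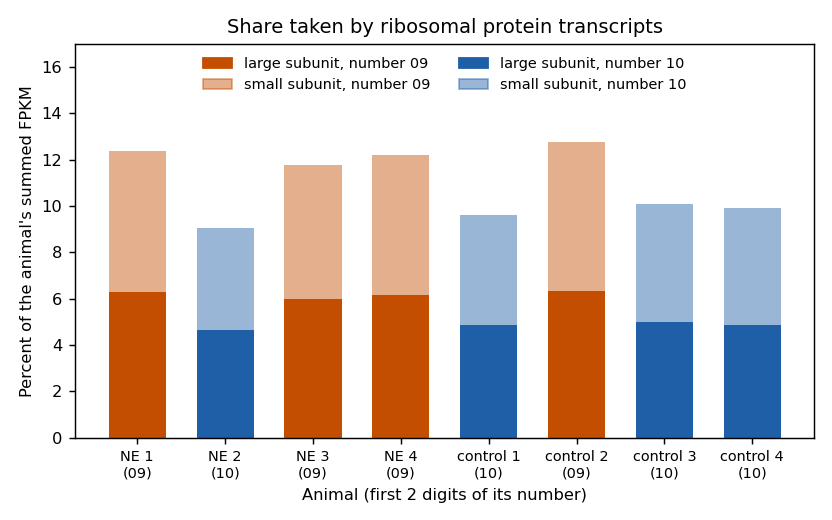
Percent of each animal's summed FPKM taken by the 52 members, split into large subunit (dark) and small subunit (light), with NE-Infused animals on the left and Saline-Control animals on the right. Orange bars, number 09, reach 11.8 to 12.8%, and blue bars, number 10, reach 9.04 to 10.1%.

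Members moved closely together from animal to animal. Over the 8 animals the SD of log2(FPKM + 1) had a median of 0.44 among the 31 members with at least 300 FPKM. After the median member of the same animal was subtracted, the median SD was 0.12, and 26 of the 31 members were under 0.2. RPLP0 (SD 0.05) and RPL19 (0.06) were among those that followed the median member most closely.

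The 5 that departed most were RPLP1 (SD 0.31), RPL23A (0.24), RPL29 (0.23), RPS27L (0.23) and RPL12 (0.21). Relative to the median member and to its own mean, RPLP1 was at 0.24, 0.34, 0.21 and -0.02 in norepinephrine animals, against 0.27, -0.22, -0.37 and -0.44 in controls. Control 1 lay with the norepinephrine animals, and the number groups were mixed. RPS27L was at -0.14, -0.13, 0.07 and -0.44 in norepinephrine animals and 0.25, 0.06, 0.18 and 0.16 in controls, with norepinephrine 3 just above control 2. These are descriptions of single transcripts within the set, since the members with the largest departures were picked for them.

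**Figure D5:**
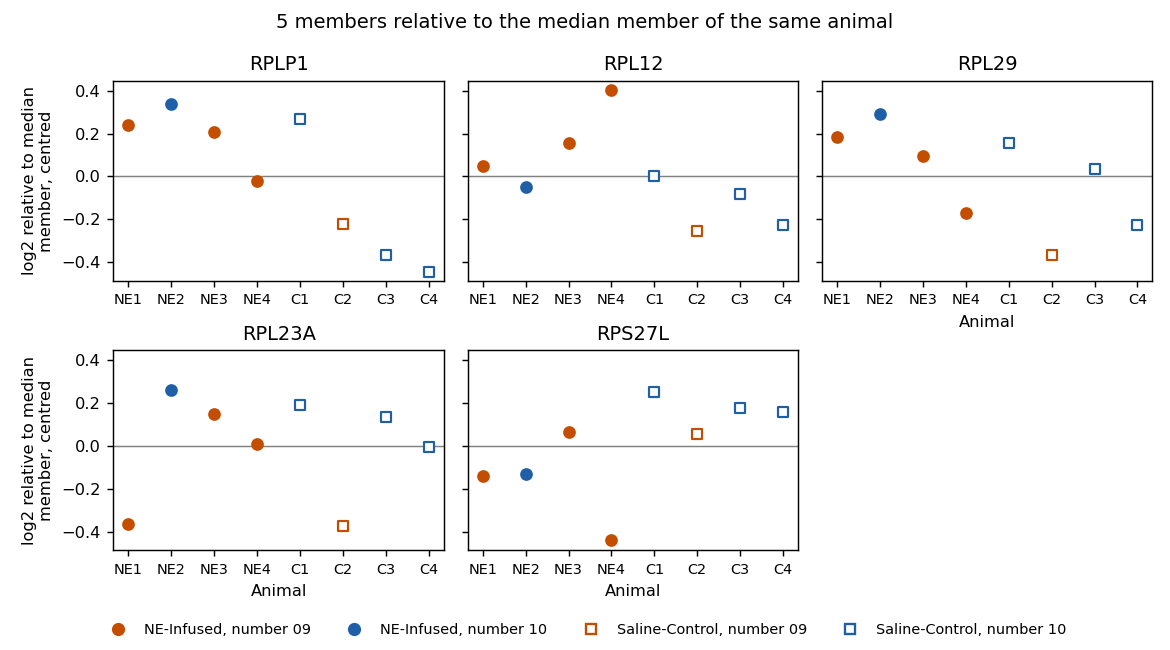
Log2(FPKM + 1) of the 5 members that departed most, after the median of the 31 abundant members in the same animal was subtracted, centred on each member's own mean, in NE-Infused animals (circles, left) and Saline-Control animals (squares, right), orange for number 09 and blue for number 10. RPLP1 runs from 0.34 in norepinephrine 2 to -0.44 in control 4, with orange and blue points mixed.

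Lists of genes that work with ribosomal proteins had lower median differences between the numbers, but were mostly less abundant. The highest mean was 348 FPKM among biogenesis, 268 among mTORC1 and 296 among mitochondrial ribosomal protein genes, while 28 members averaged at least 1000 FPKM. The difference was larger in abundant genes, and lists and members of like abundance were not compared. Over all tested genes 10.4% were called higher in number 09 and 6.06% lower. Of 24 listed translation factors and other genes with 5′-TOP transcripts, 14 were tested. Of these, 11 were called higher and 0 lower in number 09, with a median of 0.60. VIM, an intermediate filament, and TPT1, a growth-related protein, differed by 0.64 (adjusted p = 0.0242) and 0.56 (adjusted p = 0.0335). The elongation factor gene EEF1A1 averaged 19.2 FPKM, low for a gene that is among the most abundant in most cells. Whether its row reports the gene it is named for was not tested.

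Ribosome biogenesis genes had 10 of 32 tested members called higher and 1 lower, with a median of 0.23. The most abundant were NOP10, POLR1D and EIF6. NOP10, a protein of the particle that pseudouridylates ribosomal RNA, differed by 0.35 (adjusted p = 0.0353). POLR1D, a subunit of RNA polymerases I and III, differed by 0.83 (adjusted p = 0.0103). EIF6, which keeps the large subunit apart from the small one, differed by 0.44 (adjusted p = 0.0238). Genes of mTORC1 and translation control had 4 of 20 called higher and 1 lower, with a median of 0.07. Their most abundant members, the cap-binding EIF4E, the mTORC1 activator RHEB and the EIF4E inhibitor EIF4EBP2, differed by -0.11 (adjusted p = 0.457), 0.44 (adjusted p = 0.0406) and -0.53 (adjusted p = 0.138).

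Of 65 mitochondrial ribosomal protein genes 29 were called higher and 0 lower, with a median of 0.40. After norepinephrine none of the genes in these 4 lists was called. The medians of norepinephrine minus control were 0.24 for 5′-TOP genes, 0.11 for biogenesis, 0.05 for mTORC1 and 0.19 for mitochondrial ribosomal proteins, against 0.02 over all genes. With the number in the model they were -0.05, 0.01, -0.01 and -0.02 in the same order.

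Of 17 listed acinar markers, 7 were tested and 1 (CTRC) was called higher in number 09, with a median difference of 1.46 over the 7. CPB1 (0.15, adjusted p = 0.839) and CELA1 (0.084, adjusted p = 0.883) lay near 0. The summed level of the acinar markers was 170 to 1018 FPKM in number 09 and 124 to 158 FPKM in number 10, and 136 to 1018 FPKM in norepinephrine animals and 124 to 170 FPKM in controls, while the lipase PNLIP stayed under 1 FPKM everywhere. Of other lists, endothelial markers had 2 of 5 called higher, endocrine 1 of 10 and leukocyte 1 of 6. Duct markers had 0 of 4 and mesenchymal 0 of 6, where 10.4% of all tested genes were called higher. Red blood cell markers summed to at most 0.621 FPKM. The part of these cells, of depth or of weight in the difference between the numbers was not tested. In islets sequenced whole, fewer cells of a type and less RNA per cell cannot be told apart.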

How the data were processed

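Islet RNA of 8 fetuses was sequenced as 100 bp read pairs after a TruSeq RNA kit, per the labels' protocols, with strand marking not stated. The authors deposited 1 table of FPKM values per gene and animal, with no counts. Per the submitters' processing notes, TopHat2 2.0.1, Cufflinks 2.1.1 and Cuffdiff were used with build Oar_v3.1. Annotation and filters: not given in the sources used here. Columns were matched to animals by number (0 columns left out), and starts were raised by 1.

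Values were analysed as log2(FPKM + 1), which understates changes of low genes. The 13252 rows averaging 1 FPKM or more (among them 40 of 52 members) were tested with limma 3.58.1 in R 4.3.3 (variance trend, two-sided, Benjamini-Hochberg over all tested rows, threshold 0.05). Number 09 against 10 was fitted with treatment in the model. The test of 09 against 10 was tested on simulated data of 13252 genes. Noise was drawn independently for each gene, and changes were placed only in the more abundant genes. It recovered 66.4% of 2-fold and 94% of 4-fold changes, with 8.8 false calls on average. Genes that move together, as the members do, were not simulated, so the number of false calls in the real data is not known. With no counts, no counting interval was computed, and the 8 animals set the precision.

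Members and lists were chosen with earlier results of these data known. The genes named are the 5 most abundant of each subunit, the 6 largest and 6 smallest differences in each comparison, members at 0 or below the filter, members whose groups do not overlap, a list of members with known roles, and the 3 most abundant of each other list. A few genes that this takes are left unreported here and undrawn. RPL7A, RPL23, GBE1, PIK3C2A, UNC13B, SLC37A4, CTRC, PNLIP, CHGA, PDX1 and IAPP were named after their values were seen. RefSeq neighbours come from assembly ARS-UI_Ramb_v3.0, in which 48 members matched by symbol. No sequences were used here. Alternatives were another pseudocount, filters, scalings, duplicate rows summed, covariates, a replicate block and leaving out each animal. The replicate numbers belong to different animals.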

Additional observations from a re-analysis of the deposited data

Results flagged for a closer look

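Single animals that stood apart from the other 3 of their group were found in 10 of 84 checks (21 results in 4 groupings). The measure was the gap to the nearest divided by the range, for members on the log2(FPKM + 1) scale. Independent checks would give about 1 in 20 by chance. These checks are not independent, since members moved together and the groupings share animals, so the count cannot be set against chance.

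In the NE-Infused group norepinephrine 2, the only one of that group numbered 10, stood low for RPS20 (0.845), RPL19 (0.901) and RPS4X (0.919). In the Saline-Control group control 2, the only control numbered 09, stood high for RPL12 (0.866), RPS27L (0.870), RPS19BP1 (0.884) and RPL10 (0.903), and for the members' percent of summed FPKM (0.841). Among animals numbered 10, control 1 stood low for RPL26L1 (0.941) and control 3 stood high for RPL23A (0.847).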

How the results depend on the processing

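Without counts, depth limits the low members most, and with 4 animals a group and 1 lone animal in 2 of the 4 combinations of treatment and number, small differences cannot be shown. Of 107 alternative values over the members, 96 were classed as the same, 6 as moved and 5 as reversed. A count could differ somewhat and still be classed as the same, as 25 or 27 members called did against 34. A median was the same if its sign held and it moved by less than a spread over animals. For the treatment median that spread was 0.40, more than the median of 0.27 itself. The subunit difference of 0.22 became -0.12 with no abundance filter and 0.058 with canonical proteins only; after seeing the data, it was also computed for members beside their RefSeq neighbours (0.014) and at 300 FPKM or more (-0.082). The number median of 0.85 was 0.39 with equal summed FPKM and 0.44 with members left out of the sum. With fetal sex added 0 members were called. Leaving out 1 animal gave 0 members (without control 2) to 35 (without norepinephrine 1), with 25 without norepinephrine 2. Over all genes these fits called 18, 2272 and 710 in the same order, against 2187 as reported. Without control 2 or norepinephrine 2, the number difference rests on the other of these animals. The treatment median of 0.27 became -0.165 with the number prefix as a covariate, -0.33 with gestational age and, added after seeing the data, -0.093 with equal summed FPKM and prefix. The cause was not tested. Leaving out 1 animal moved it from 0.15 (without norepinephrine 4) to 0.48 (without control 2), with 0.47 without norepinephrine 2. Same-numbered animals of the 2 groups did not deviate together (correlations -0.16, -0.38, -0.03 and 0.09, and 0 of 4 best with their own number). With the replicate block 0 members were called for treatment (0.27) and 27 for number (0.85). Counts over all genes for number were 471 with the block, 4363 with equal summed FPKM, 3794 with members left out of the sum, 24 with sex and 2187 as reported.

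Of single-gene values, 45 turned round, all without a call. For treatment these were, with equal summed FPKM and then with members left out of the sum, RPS20 (-0.052, -0.040), RPS16 (-0.047, -0.034), RPL19 (-0.024, -0.012) and RPS19BP1 (-0.021, -0.0086). With the prefix they were RPS26 (-0.10), RPS20 (-0.43), RPS16 (-0.22), RPL19 (-0.28), RPS19BP1 (-0.31) and RPS4X (-0.10), and with prefix and equal sums -0.041, -0.35, -0.14, -0.20, -0.24 and -0.029 in that order. With gestational age they were RPS25 (-0.31), RPL12 (-0.28), RPS26 (-0.14), RPS20 (-0.64), RPS16 (-0.50), RPL19 (-0.42), RPS19BP1 (-0.54) and RPS4X (-0.19). For number, with equal summed FPKM and then with members left out of the sum, these were RPL26L1 (-0.39, -0.34) and RPL26 (-0.12, -0.079). RPL13 was 0.20 with the prefix alone, and with sex RPL13 was 0.56 and RPL26 -0.29. Leaving out 1 animal gave, for treatment, RPS27L -0.25 to 0.078, RPS20 -0.070 to 0.40 and RPS16 -0.032 to 0.29, and for number RPL26L1 -0.071 to 0.19, RPL13 -1.09 to 0.75 and RPL26 -0.47 to 1.06.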
